A study of Mus musculus with 12 samples.

Results

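Collagens are the trimeric proteins that give extracellular matrix its tensile strength and basement membranes their mesh. Each collagen molecule winds 3 polypeptide chains, named alpha chains, into a triple helix, and each chain is encoded by a gene whose symbol carries the collagen type and the chain number. The collagen chain genes were taken as the rows of the raw count table whose symbol has that form (Col, type, a, chain) and that held at least 10 counts in at least 3 of the 12 libraries. Of 44 rows with such a symbol, 30 met the count condition, out of 55335 genes in the table. All 30 were also among the 14935 genes that passed the filter on low counts and were tested. They comprised 8 fibrillar chain genes (types I, II, V, XI and XXVII), 7 genes of basement membrane collagens (types IV, VII and XVIII) and 15 genes of other types.

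RNA was sequenced from PYMT-R221A, a cell line of mouse mammary tumour origin whose name refers to the polyoma middle T oncogene, in 4 groups of 3 libraries labelled as biological replicates. One group received 40 µM KCC-07, a compound used as an inhibitor of the methyl-CpG-binding protein MBD2, 1 was transfected with an siRNA against Mbd2 (siMBD2), 1 with a scramble siRNA, and 1 was the control. All groups are the same line in culture, with no stromal partner cells named, and no vehicle, treatment time or passage is given in the labels. KCC-07 was set against control and siMBD2 against scramble, and the scramble libraries were also set against control. Counts summed to between 25.8 M and 34 M per library, of which the 30 genes took between 0.153% and 0.279%. Levels are CPM, each gene's counts relative to its library's total after scaling by the trimmed mean of M values (TMM), and genes were called at an adjusted p under 0.05 (edgeR's quasi-likelihood test, Benjamini-Hochberg adjustment over all 14935 genes). Mbd2, the siRNA target, averaged 33.7 ± 2.7 CPM with siMBD2 and 77.2 ± 5.47 CPM with scramble (SD, n = 3 each), and 75.0 ± 2.16 CPM with KCC-07 and 75.1 ± 1.94 CPM in control. All 5 mammary epithelial markers (Epcam, Cdh1, Krt8, Krt18, Krt19) were detected, with a summed level of 1117 to 1407 CPM, of which Krt19 had 0.474 to 3.31 CPM. Basal or myoepithelial markers were detected as well. Krt14 had 229 to 494 CPM, Krt17 69.5 to 140 CPM, Trp63 17.7 to 56.6 CPM, Krt5 1.72 to 31.3 CPM and Acta2 0.168 to 1.28 CPM. Of the markers of other cell types, Thy1, Rgs5, Cdh5, Adgre1, Adipoq and Plin1 (fibroblasts, pericytes, endothelium, macrophages and adipocytes) were at 0 in all 12 libraries. Other members of those lists were detected, with 36.8 to 80 CPM for Mcam of the pericyte list, 0.701 to 6.48 CPM for the endothelial Pecam1, and 0.829 to 7.61 and 0.703 to 7.25 CPM for the leukocyte genes Csf1r and Cd68. The fibroblast markers Dcn and Lum had at most 0.145 and 0.0586 CPM, and Pdgfra, a growth factor receptor of mesenchymal cells, had 69.6 to 160 CPM. Of the same list Pdgfrb had 2.17 to 17.1 CPM, Pdpn 0.396 to 2.15 CPM and Fap 0.101 to 0.444 CPM.

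Fibrillar collagens assemble into the striated fibres of stroma and cartilage and are classically made by fibroblasts, osteoblasts and chondrocytes. Type IV collagen forms the sheet-like network of basement membranes, type VII anchors that sheet to the matrix beneath, and type XVIII is a basement membrane proteoglycan whose C-terminal fragment is endostatin. Among the other types, VI forms beaded microfilaments, VIII forms hexagonal networks, IX, XII, XIV, XVI and XX are fibril-associated collagens with interrupted triple helices, and XVII, XXIII and XXV span the plasma membrane. Mammary epithelium rests on a type IV network, and tumour progression is known for remodelling both that network and the fibrillar stroma.

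Control replicate 1 stood apart for these genes. It held the lowest value of all 12 libraries for 18 of the 30 genes (60%), against 17.0% of all genes tested. Its summed collagen level was 1497 CPM, below the 2325 and 2742 CPM of the other 2 control libraries and the 2160 to 2766 CPM of the remaining 9 libraries. At the upper end, KCC-07 replicate 3 held the highest value for 10 genes and control replicate 3 for 9 (33.3% and 30%, against 23.2% and 9.49% of all genes tested). Results that rest on the control group are therefore also given without control replicate 1 or control replicate 3 where a call of a collagen gene changes. Both libraries were singled out on these same collagen values. A call gained by leaving a library out thus shows how far a result hangs on that library and is not read as support for a change.

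Levels of different genes were compared per kilobase of merged exons in the GENCODE annotation. Col18a1, the type XVIII chain, had the highest level per length, with a mean of 74.8 CPM per kb over the 12 libraries, or 20.1% of the summed level of the 30 genes. Col6a1, a chain of the type VI microfilament, followed with 61.2 CPM per kb, but this order did not hold in every group. Col18a1 had 86.5 ± 13.4 CPM per kb with KCC-07, 73.9 ± 3.04 with siMBD2, 83.9 ± 3.87 with scramble and 55 ± 12.9 in control (SD, n = 3 each). Col6a1 had 56.8 ± 9.69 CPM per kb with KCC-07, 50.8 ± 4.65 with siMBD2, 52.5 ± 8.5 with scramble and 84.6 ± 18.4 in control, so that in control Col6a1 stood above Col18a1. Col9a3 and Col9a1, chains of the fibril-associated type IX collagen of cartilage, had 50 and 46.4 CPM per kb, and Col11a1, a chain of the minor fibrillar type XI, had 36.2 CPM per kb. Those levels contrasted with the main stromal fibrillar collagens. Col1a1 had 4.39 CPM per kb and Col1a2, its partner in type I collagen, had 0.022 CPM per kb, the lowest of the 30 genes. Col3a1, the type III chain of stroma, was not among them: it had 47 counts in all 12 libraries together. Col2a1, the major fibrillar chain of cartilage, had 1.00 CPM per kb.

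Some members lay close to the count condition. Just inside it, Col1a2 and Col23a1 reached 10 counts in 4 libraries and Col20a1 in 6. Just outside it, Col4a3 and Col28a1 reached 10 counts in 2 libraries and Col3a1 and Col5a3 in 1. The remaining 27 genes had at least 10 counts in all 12 libraries. Of the 14 rows left out, Col6a5 had 0 counts in every library, which allows up to 3 counts per library (counting error only).

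**Figure D1:**
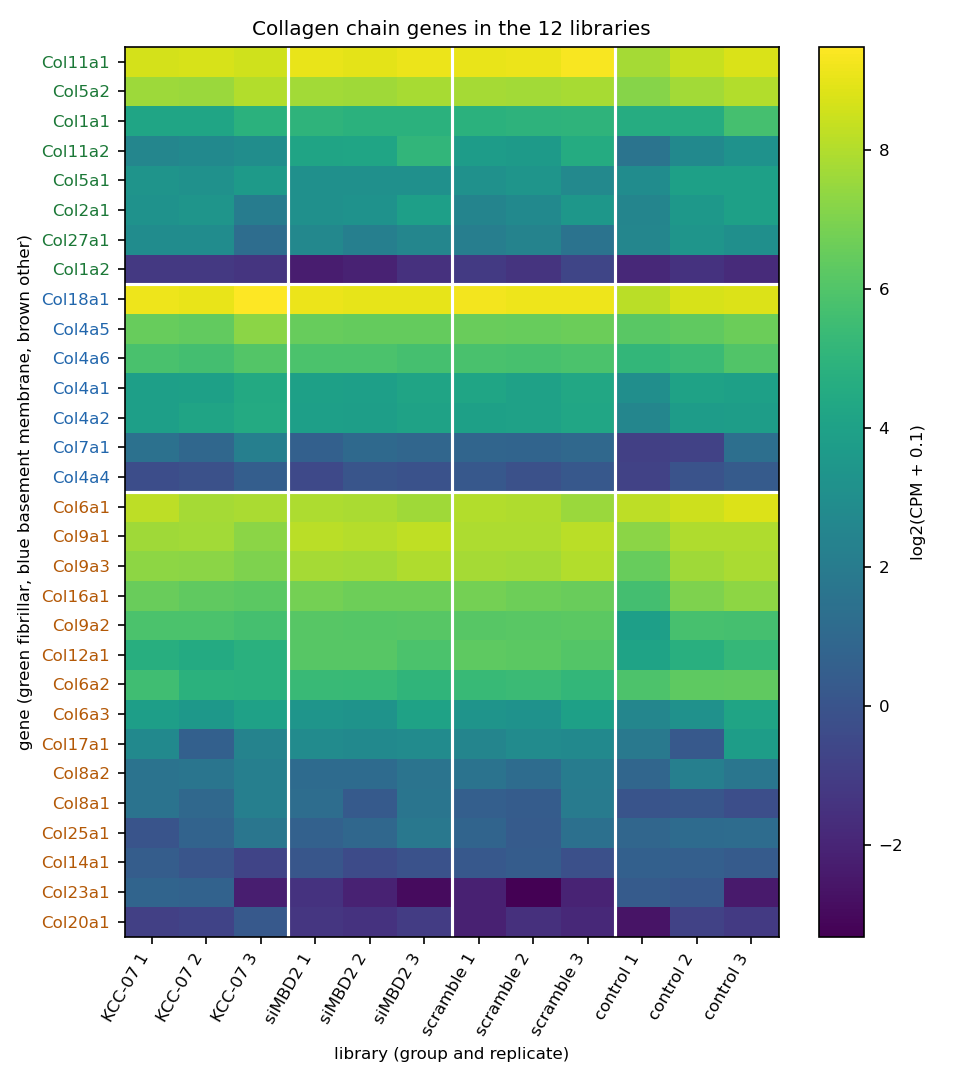
Each row is a collagen chain gene, grouped as fibrillar, basement membrane and other and ordered by level within the group, and each column is a library; colour is log2(CPM + 0.1). Col18a1 and Col11a1 are the brightest of their groups in all 12 libraries, Col6a1 or Col9a1 is the brightest of the other types, and the column of control replicate 1 is darker than its neighbours for many genes, the lowest of 12 for 18 of the 30.

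With KCC-07, 1 collagen chain gene rose and 1 fell, and the type VI and type XVIII genes carried these changes. Col18a1 rose 1.57-fold, and Col6a2, a type VI chain, fell to 0.469 of its control level. These 2 of 30 genes are 6.67%, where 5.65% of all genes tested passed, so the share was near the background. The groups did not overlap for 5 of the 30 genes (16.7%), against 22.9% of all genes tested. By class, 1 of 7 basement membrane genes and 1 of 15 genes of other types passed, and 0 of 8 fibrillar genes passed. Fitted on the 6 libraries of the drug arm alone, 0 of the 30 passed, and the share of all genes in that fit is not given here. In the fits over all libraries 7 (23.3%) did at an unadjusted p under 0.05, against 25.1% of all genes tested, and 4 (13.3%) by DESeq2, against 12.5%. In bulk RNA, fewer cells that express a gene and less RNA per cell cannot be told apart. Over all 30 genes the median log2 fold change was 0.13, beside 0.02 over all genes tested.

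Col18a1 (ENSMUSG00000001435.15; GRCm38, chr10:77052178-77166548, minus strand) had 569, 538 and 714 CPM with KCC-07, against 283, 422 and 453 CPM in control. Every KCC-07 library lay above every control library, and control replicate 1 was the lowest of all. The log2 fold change was 0.65 (SE 0.159, adjusted p = 0.0360 by edgeR's quasi-likelihood test). The call was lost without KCC-07 replicate 1 or 3 and without control replicate 1 or 2, with a largest adjusted p of 0.0880 in edgeR and log2 fold changes between 0.47 and 0.79. The 5 epithelial markers, too, summed to 1338 to 1383 CPM with KCC-07 and to 1117 to 1282 CPM in control, and 4 of the 5 rose (Epcam, Cdh1, Krt18 and Krt19). Their part in the result was not tested.

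RefSeq gives Col18a1 a pair of start sites on GRCm38.p6, which begin short and long forms of the chain. Both windows, from 250 bases before to 50 bases after the start, are shown because this gene has the highest mean collagen level over the 12 libraries; capitals mark CpG dinucleotides, the unit of DNA methylation that MBD2 reads. The upstream window (chr10:77166481-77166780, minus strand) holds 16 CpG and the downstream window (chr10:77113656-77113955, minus strand) holds 6, beside a median of 7 over 32851 windows of all genes and of 12 over 27 windows of 24 collagen chain genes. The counts deposited per gene do not separate the forms.
Col18a1 upstream start: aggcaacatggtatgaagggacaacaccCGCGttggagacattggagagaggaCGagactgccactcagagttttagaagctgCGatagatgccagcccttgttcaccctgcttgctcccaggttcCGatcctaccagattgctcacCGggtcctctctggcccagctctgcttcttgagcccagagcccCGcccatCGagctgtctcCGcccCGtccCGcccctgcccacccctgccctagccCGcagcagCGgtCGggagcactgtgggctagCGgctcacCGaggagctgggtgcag
Col18a1 downstream start: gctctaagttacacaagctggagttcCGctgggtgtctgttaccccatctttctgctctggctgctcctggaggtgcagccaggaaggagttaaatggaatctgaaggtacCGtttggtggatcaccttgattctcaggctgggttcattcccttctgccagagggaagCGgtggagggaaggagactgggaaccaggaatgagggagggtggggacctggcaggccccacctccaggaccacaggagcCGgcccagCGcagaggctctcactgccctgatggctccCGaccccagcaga

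Col6a2 (ENSMUSG00000020241.13; GRCm38, chr10:76595762-76623630, minus strand) had 46.2, 28.8 and 27.7 CPM with KCC-07, against 59.8, 78.3 and 81.1 CPM in control. The groups did not overlap. Its log2 fold change was -1.09 (SE 0.193, adjusted p = 0.0108 by edgeR), and it passed whichever 1 of the 6 libraries was left out, with log2 fold changes between -1.37 and -0.96. Col6a1, which lies beside it (chr10:76708792-76726168, minus strand), had 297, 217 and 232 CPM with KCC-07, against 291, 369 and 452 CPM in control. There KCC-07 replicate 1 lay just above control replicate 1. The log2 fold change of Col6a1 was -0.58 (SE 0.175, edgeR adjusted p = 0.0743), and with the replicate number as a block it was -0.57 (adjusted p = 0.0425). Col6a3, the third chain of the type VI molecule, had 11.4 to 15.8 CPM with KCC-07 and 5.83 to 17.9 CPM in control, with a log2 fold change of 0.34 (SE 0.371, edgeR adjusted p = 0.606). The type VI genes together took 16.1% to 20.8% of the summed collagen level per length with KCC-07, against 25.2% to 31.2% in control. This low share was not particular to KCC-07, with 12.9% to 15.5% with siMBD2 and 11.7% to 16% with scramble. The type VI level itself overlapped, at 54 to 74.5 CPM per kb with KCC-07 and 74.1 to 114 in control. Control replicate 1 had the lowest type VI level of the controls but the highest share, since its summed collagen level was low.

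Promoter windows of the neighbouring type VI pair are shown for comparison, with CpG in capitals. The Col6a1 window (chr10:76725995-76726294, minus strand) holds 3 CpG and no GGGCGG. Of the overlapping Col6a2 windows, chr10:76623355-76623654 holds 16 CpG and chr10:76623581-76623880 holds 6, both on the minus strand, and both hold GGGCGG, the core letters of the Sp1 box. On either strand GGGCGG was present in 19 of the 27 windows of collagen chain genes (70.4%) and in 35.7% of all windows of this length. These sets are unlike, since the collagen genes met a count condition and the windows of all genes did not have to. Some collagen windows also overlap, those of Col6a2 and those of Col4a1 and Col4a2, and were counted separately.
Col6a1: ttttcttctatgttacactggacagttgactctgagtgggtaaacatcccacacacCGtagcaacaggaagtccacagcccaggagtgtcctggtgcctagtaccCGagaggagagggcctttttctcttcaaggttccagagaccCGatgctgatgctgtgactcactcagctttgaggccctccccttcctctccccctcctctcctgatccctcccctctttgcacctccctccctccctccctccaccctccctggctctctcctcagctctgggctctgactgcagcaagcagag
Col6a2 first window: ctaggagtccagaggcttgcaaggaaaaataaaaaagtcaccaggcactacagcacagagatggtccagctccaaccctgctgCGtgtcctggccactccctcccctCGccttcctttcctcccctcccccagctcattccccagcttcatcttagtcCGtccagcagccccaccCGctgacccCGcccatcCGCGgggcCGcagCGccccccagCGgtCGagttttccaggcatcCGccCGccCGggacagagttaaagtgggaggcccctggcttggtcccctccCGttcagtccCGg
Col6a2 second window: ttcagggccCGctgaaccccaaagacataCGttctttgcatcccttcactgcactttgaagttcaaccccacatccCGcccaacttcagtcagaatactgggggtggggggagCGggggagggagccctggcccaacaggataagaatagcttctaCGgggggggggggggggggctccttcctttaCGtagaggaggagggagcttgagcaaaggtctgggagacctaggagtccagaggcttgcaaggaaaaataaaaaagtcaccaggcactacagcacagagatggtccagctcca

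The labels tag the replicate number as a batch, and it was used to pair the libraries of the drug arm. Across all genes a pairing was not seen within replicates 1 and 2. Same-numbered libraries had r = 0.27 and 0.28, against 0.17 and 0.30 for differently numbered ones. Replicate 3 stood apart, with r = 0.48 between its libraries, so the block mainly takes up that difference. With the replicate number as a block, 8 of the 30 genes passed (26.7%, against 21.8% of all genes tested): Col18a1, Col4a2, Col4a5, Col7a1 and Col8a1 rose, and Col1a1, Col6a1 and Col6a2 fell. Col7a1, the anchoring fibril chain, had 2.66, 1.84 and 4.53 CPM with KCC-07, against 0.439, 0.466 and 2.44 CPM in control. Each KCC-07 library exceeded its same-numbered control, yet KCC-07 replicate 2 lay below control replicate 3. Its log2 fold change was 1.42 without the block (SE 0.565, edgeR adjusted p = 0.147) and 1.72 with it (adjusted p = 0.0120). Without control replicate 3 it was 2.72 and passed with no block (edgeR adjusted p = 0.00634). That library was the highest control for Col7a1, so leaving it out raises the fold change by construction. Col8a1, a chain of the hexagonal type VIII network, had 2.83, 1.91 and 4.53 CPM with KCC-07, against 0.908, 0.966 and 0.754 CPM in control. These groups did not overlap. Its log2 fold change of 1.81 (SE 0.503) missed the threshold without the block (edgeR adjusted p = 0.0556) and passed with it (adjusted p = 0.0128). Col1a1, the major chain of type I collagen, had 18.2, 18.6 and 29.1 CPM with KCC-07, against 23.9, 24.5 and 51.5 CPM in control. Each KCC-07 library was below its same-numbered control, and the log2 fold change with the block was -0.54 (edgeR adjusted p = 0.0137), against -0.60 (adjusted p = 0.195) without it.

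**Figure D2:**
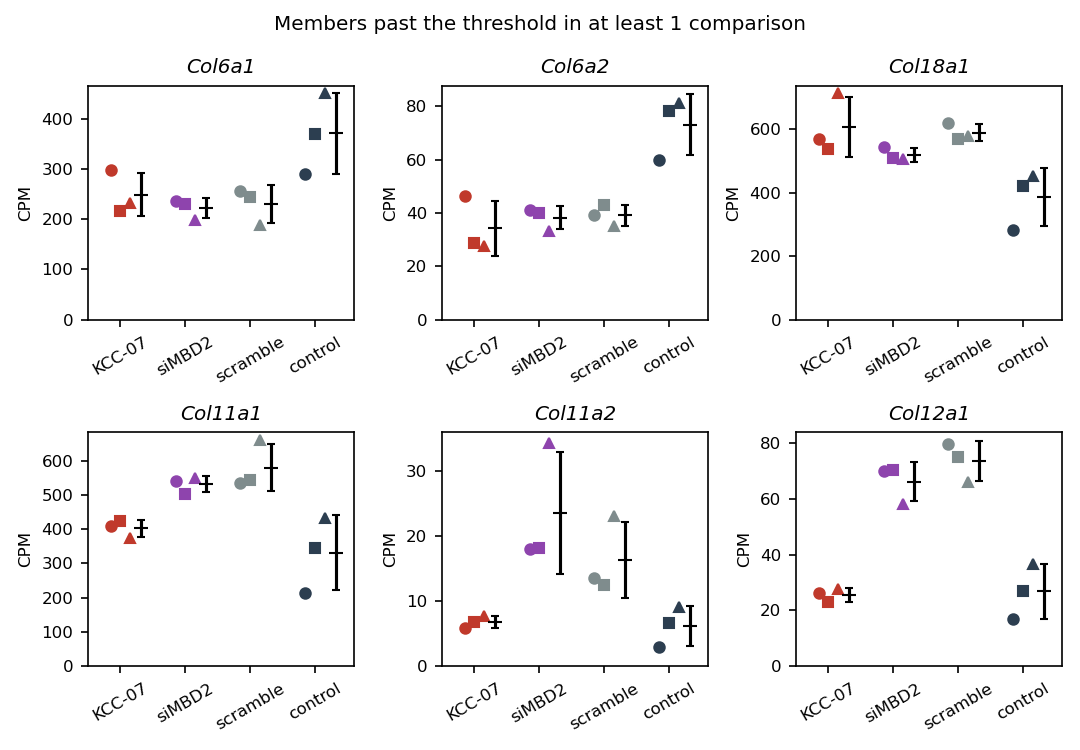
Points are CPM per library for the 6 genes past the threshold in at least 1 comparison (circle, square and triangle are replicates 1, 2 and 3), and bars are the group mean ± SD. Col6a1 and Col6a2 are highest in control, Col18a1 is lowest in control, and Col12a1 lies at 58.1 to 79.7 CPM in the siRNA-transfected groups and at 17.0 to 36.7 CPM in the others.

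All 7 basement membrane genes had a fold change above 0 with KCC-07, with a median log2 fold change of 0.40 beside 0.02 over all genes tested, of which 51.8% lay above 0. Apart from Col18a1 none of them passed without the block when all libraries were kept. Col4a2, an obligate chain of the main type IV network, had 15.1, 17.7 and 22.9 CPM with KCC-07, against 5.74, 13.5 and 13.8 CPM in control. The groups did not overlap, and control replicate 1 was the lowest library of all. Its log2 fold change was 0.76 (SE 0.273, edgeR adjusted p = 0.116) without the block and 0.83 (adjusted p = 0.0131) with it. Col4a1, its partner, had 14.7, 15.5 and 21.7 CPM with KCC-07, against 7.79, 16.3 and 15.3 CPM in control. These values overlapped, and the log2 fold change was 0.40 (SE 0.245, edgeR adjusted p = 0.338). Col4a5, a chain of a second type IV network, had 91.8, 85.6 and 151 CPM with KCC-07, against 73.1, 82.3 and 98.6 CPM in control. KCC-07 replicate 3 alone lay above all controls. Col4a5 had a log2 fold change of 0.37 (SE 0.182, edgeR adjusted p = 0.231) without the block and 0.33 (adjusted p = 0.0464) with it. Col4a6, which shares that network, had 56.2, 49.5 and 66.6 CPM with KCC-07, against 35.1, 42.4 and 63.3 CPM in control. Its groups overlapped, and the log2 fold change was 0.29 (SE 0.181, edgeR adjusted p = 0.341). Without control replicate 3, the highest of the controls for this gene, Col4a6 passed with a log2 fold change of 0.57 (edgeR adjusted p = 0.0208). Leaving out the highest control raises the fold change by construction, so this call is not support for a rise. Without control replicate 1 the median of the 7 genes was 0.27, and over all leave-one-out fits it lay between 0.20 and 0.57.

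**Figure D3:**
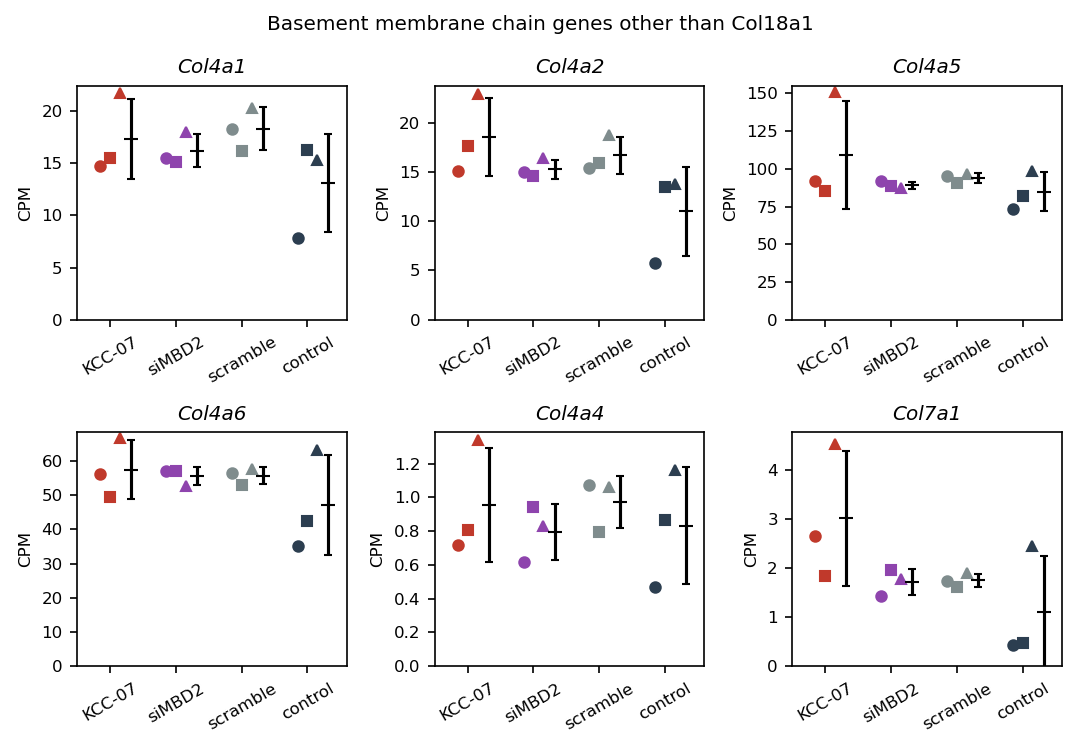
Points are CPM per library for the 6 basement membrane chain genes other than Col18a1 (circle, square and triangle are replicates 1, 2 and 3), and bars are the group mean ± SD. Control replicate 1 is the lowest library in each of the 6 panels, KCC-07 replicate 3 is the highest in each, and the siRNA-transfected groups lie close together.

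Col4a1 and Col4a2 are transcribed in opposite directions from a shared promoter. Their start sites in RefSeq (GRCm38.p6) are at 11312826 on the minus strand and 11312805 on the plus strand of chromosome 8, so that 22 bases at the transcribed ends belong to both genes. Both windows are shown for that reason, and capitals mark the 78 bases (chr8:11312777-11312854) that lie in both; they read as the reverse complement of each other. The Col4a1 window (chr8:11312777-11313076, minus strand) holds 37 CpG, the most of the 27 collagen windows, and the Col4a2 window (chr8:11312555-11312854, plus strand) holds 33. Both hold GGGCGG and CCAAT on either strand, and CCAAT was found in 40.7% of collagen windows and in 37.4% of all windows. In contrast, Col4a6 and Col4a5 start 1343 bases apart on the X chromosome, and their windows share no base.
Col4a1: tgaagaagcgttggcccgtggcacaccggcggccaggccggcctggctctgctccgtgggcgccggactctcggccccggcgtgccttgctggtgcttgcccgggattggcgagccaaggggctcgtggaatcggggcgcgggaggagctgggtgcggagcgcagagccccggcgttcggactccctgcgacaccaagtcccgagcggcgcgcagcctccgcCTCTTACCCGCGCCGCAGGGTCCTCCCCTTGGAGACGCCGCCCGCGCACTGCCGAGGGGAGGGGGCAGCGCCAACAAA
Col4a2: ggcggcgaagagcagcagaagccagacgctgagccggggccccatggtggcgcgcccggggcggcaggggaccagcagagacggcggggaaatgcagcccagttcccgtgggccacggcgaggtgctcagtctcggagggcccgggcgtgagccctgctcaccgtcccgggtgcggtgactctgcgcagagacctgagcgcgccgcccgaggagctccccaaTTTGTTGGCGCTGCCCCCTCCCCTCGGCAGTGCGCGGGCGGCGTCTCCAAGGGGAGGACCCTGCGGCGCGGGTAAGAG

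Partner chains of the shared promoter were at like levels. The log2 ratio of Col4a1 to Col4a2 per length lay between -0.37 and 0.27 over the 12 libraries, that is between 0.774 and 1.20 as a ratio. It was -0.22, -0.37 and -0.25 with KCC-07, against 0.27, 0.10 and -0.02 in control, and these values did not overlap. Col6a1 exceeded Col6a2 by 8.96 to 15.9 times, with log2 ratios of 3.61, 3.84 and 3.99 with KCC-07, against 3.21, 3.16 and 3.41 in control. Again the groups did not overlap. With siMBD2 this ratio was 3.45 to 3.51 and with scramble 3.34 to 3.64. The other pairs chosen beforehand did not overlap between KCC-07 and control either, except Col1a1 to Col1a2. How often the ratio of other gene pairs separates these groups is not given here. The pairs also share the same control libraries, and Col6a1 is in more than 1 of them. The separations are therefore not read as a general shift of chain ratios. Col6a1 to Col6a3 had log2 ratios of 5.33 to 5.83 with KCC-07, against 6.10 to 7.09 in control. Col8a1 to Col8a2 had -1.46 to -0.79 with KCC-07, against -3.02 to -1.76 in control. Col5a1 to Col5a2 had -4.27 to -4.12 with KCC-07, against -4.08 to -3.60 in control. Col1a1 exceeded Col1a2 by 101 to 595 times, although type I collagen is mostly built from both chains; Col1a2 rests on few counts, with as few as 3 in a library. Col5a1 stood at 0.0325 to 0.0826 of Col5a2, its partner in type V collagen. Merged exon lengths include every annotated form, which understates the level of a gene with long rare forms and shifts such ratios by a constant over the libraries. Of 5 pairs added after their values were seen, Col9a1 to Col9a3 lay at 0.803 to 1.25 and Col4a5 to Col4a6 at 1.84 to 2.68. The others spread wider, with Col9a1 to Col9a2 at 1.77 to 6.17, Col11a1 to Col11a2 at 8.63 to 39 and Col11a1 to Col2a1 at 20.3 to 71.9.

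**Figure D4:**
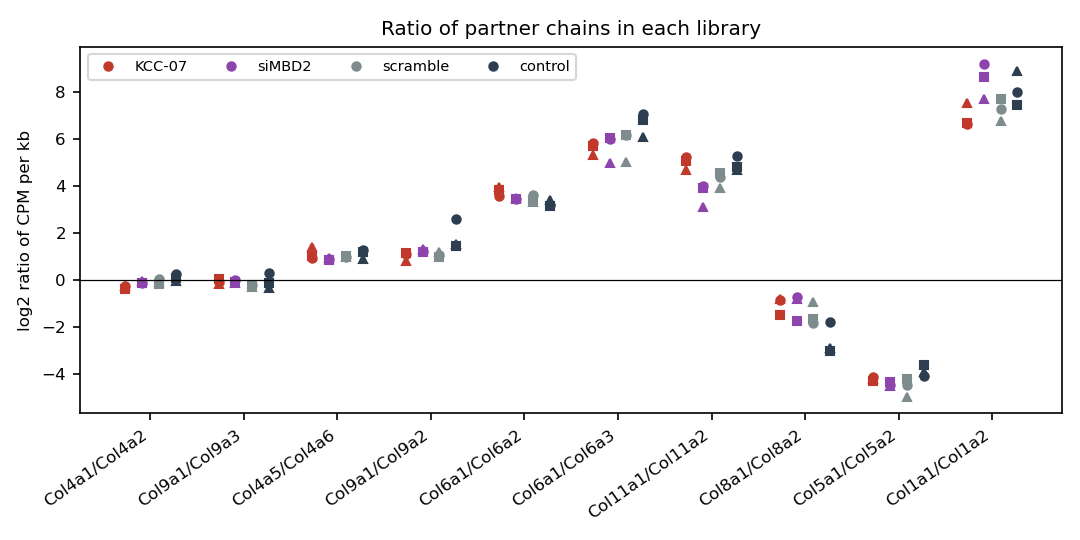
Each point is the log2 ratio of CPM per kb of a pair of chains in 1 library, by group (circle, square and triangle are replicates 1, 2 and 3). Col4a1/Col4a2 and Col9a1/Col9a3 stay within 0.37 of 0 in every library, whereas Col1a1/Col1a2 lies between 6.66 and 9.22.

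Fibrillar genes were split with KCC-07. Of the 8, 4 lay above 0 and 4 below, with a median log2 fold change of -0.12, and none passed without the block (1 of 8 at an unadjusted p under 0.05). Col11a1 had 409, 424 and 375 CPM with KCC-07, against 214, 344 and 434 CPM in control. Col5a2, a chain that regulates fibril width, had 195, 189 and 256 CPM with KCC-07, against 140, 210 and 260 CPM in control. Both genes overlapped between the groups, with log2 fold changes of 0.29 (SE 0.195) and 0.07 (SE 0.186). The type IX genes Col9a1 and Col9a3, which coat cartilage fibrils, were likewise not called. Col9a1 had 204, 208 and 152 CPM with KCC-07, against 151, 244 and 248 CPM in control. Col9a3 had 160, 150 and 129 CPM with KCC-07, against 91.8, 203 and 235 CPM in control. In both, control replicate 1 lay apart from the other controls. Without it Col9a3 passed with a log2 fold change of -0.59 (edgeR adjusted p = 0.0440), as did Col16a1, a fibril-associated chain, with -0.77 (edgeR adjusted p = 0.0150). Together with Col6a2, 3 genes were called in that fit, and the fibrillar median became -0.40. The share of all genes that passed in that fit is not given here, and the library left out was picked on these values. The count is therefore not read as a result about collagen genes. Col9a3 shares 234 exonic bases with Tcfl5 on the opposite strand, and whether reads were counted by strand is not given in the sources used here.

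With siMBD2, none of the 30 collagen chain genes passed against scramble. By edgeR 0 of 30 passed, where 0.0402% of all genes tested did. With the replicate block 0 of 30 passed, against 0.750% of all genes, and by DESeq2 0 passed, against 0.651%. At an unadjusted p under 0.05 in edgeR, 1 of 30 (3.33%) passed, against 5.26% of all genes. That gene was Col1a2, with a log2 fold change of -1.22 (SE 0.456, adjusted p = 0.813). It had 0.102, 0.134 and 0.255 CPM with siMBD2, against 0.346, 0.277 and 0.546 CPM with scramble. These values did not overlap but rest on few counts. Groups were apart for 3 of the 30 genes (10%, against 22.0% of all genes tested), the others being Col18a1 and Col20a1. Fitted on the 6 siRNA libraries alone with the replicate block, which leaves few degrees of freedom, 5 genes passed in edgeR, with log2 fold changes of 0.52 for Col11a2, 0.53 for Col2a1, 0.16 for Col9a1, -0.15 for Col12a1 and -0.18 for Col18a1. How many of all genes passed in that fit is not given here, so this count is not read as a result about collagen genes.

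Levels with siMBD2 and scramble were close for the abundant chains. Col18a1 had 544, 508 and 506 CPM with siMBD2, against 620, 569 and 578 CPM with scramble. The siMBD2 values were lower throughout, by a log2 fold change of -0.18 (SE 0.158, edgeR adjusted p = 1). Col6a1 had 237, 231 and 199 CPM with siMBD2, against 257, 245 and 188 CPM with scramble. Col9a1 had 283, 264 and 302 CPM with siMBD2, against 242, 239 and 283 CPM with scramble. Both overlapped, with log2 fold changes of -0.05 (SE 0.175) and 0.15 (SE 0.178). Col9a3 had 214, 208 and 245 CPM with siMBD2, against 214, 207 and 258 CPM with scramble. Col5a2 averaged 209 ± 11.5 CPM with siMBD2 and 216 ± 7.86 CPM with scramble (SD, n = 3 each). Both pairs of ranges nearly coincided, with log2 fold changes of -0.03 (SE 0.256) and -0.05 (SE 0.186). Col4a5 had 91.7, 88.8 and 87.1 CPM with siMBD2, against 95, 90.4 and 96.6 CPM with scramble. Col4a6 had 57.0, 57.1 and 52.6 CPM with siMBD2, against 56.5, 53.0 and 57.5 CPM with scramble, and Col1a1 had 32.2, 28.6 and 28.5 CPM, against 28.4, 30.5 and 31.9 CPM with scramble. These genes lay within 0.08 of 0 on the log2 scale, with SEs of 0.182, 0.181 and 0.271. The widest standard errors were those of Col23a1 (1.37), Col17a1 (0.692) and Col20a1 (0.655).

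By class, the median log2 fold change with siMBD2 was 0.01 for fibrillar, -0.12 for basement membrane and -0.02 for other types, beside 0.00 over all genes tested. All 7 basement membrane estimates were at or below 0, the lowest -0.29 for Col4a4 (SE 0.383). None of them passed, at an adjusted or an unadjusted p under 0.05 in edgeR.

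**Figure D5:**
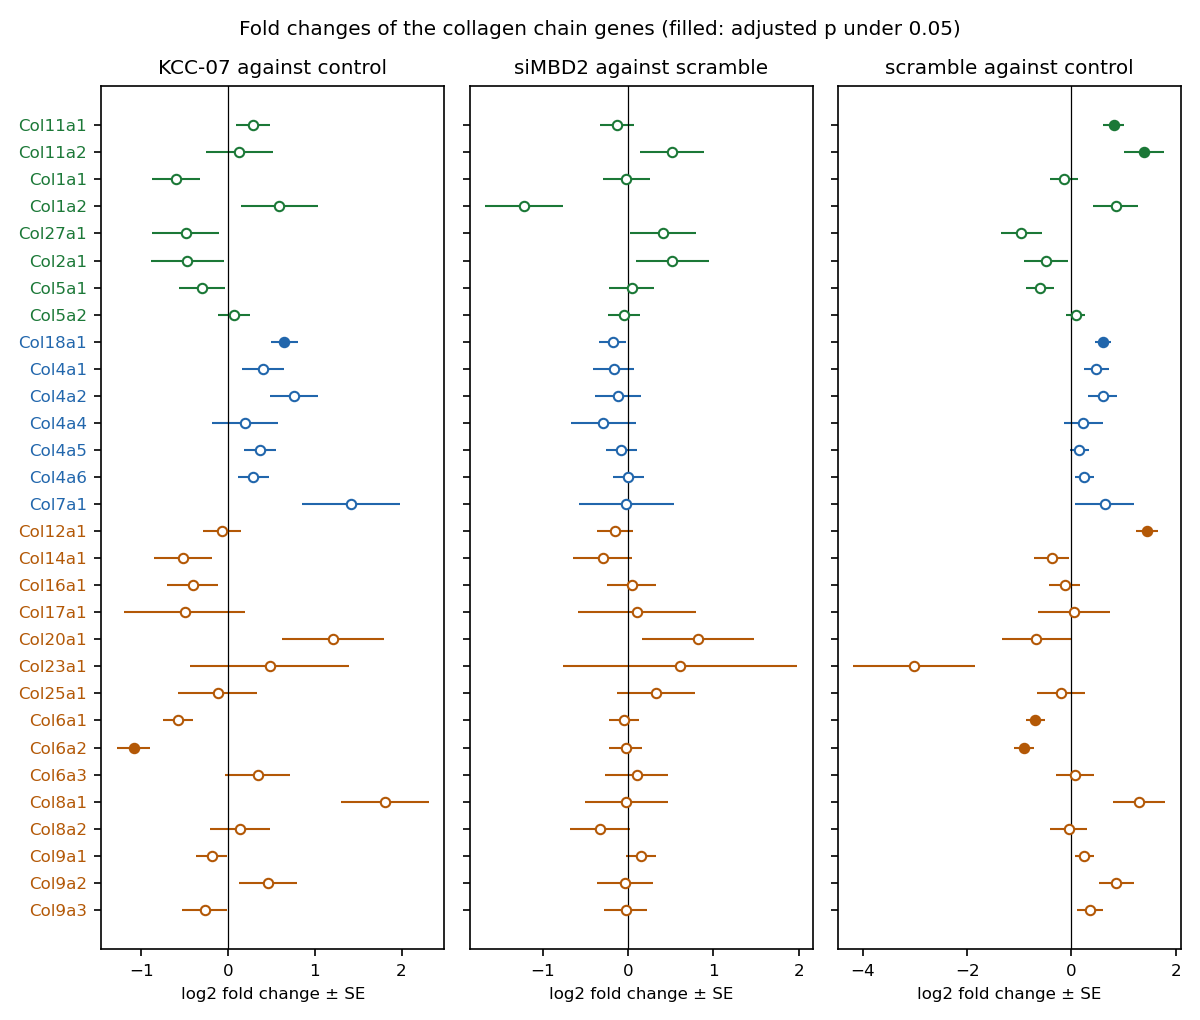
Points are log2 fold changes with bars of 1 SE from edgeR's quasi-likelihood fit for the 30 genes in 3 comparisons, and filled points passed an adjusted p under 0.05. Filled points are 2 for KCC-07 against control, 0 for siMBD2 against scramble and 6 for scramble against control.

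Whether the collagen genes moved differently with KCC-07 and with siMBD2 was tested as the difference of both effects. None of the 30 passed in edgeR, where 0.656% of all genes tested did, and 5 of 30 (16.7%) did at an unadjusted p under 0.05, against 14.6% of all genes. With the replicate block 1 of 30 passed (3.33%, against 6.90% of all genes): Col18a1, with a difference of 0.86 on the log2 scale (adjusted p = 0.0211). Without the block that difference was 0.84 (SE 0.224, edgeR adjusted p = 0.115). DESeq2 called 2 of 30 (6.67%, against 4.39% of all genes it tested), Col18a1 and Col6a2. For Col6a2 the difference was -1.06 (SE 0.271, edgeR adjusted p = 0.1). The median difference was 0.57 for the basement membrane genes, all 7 above 0, against -0.37 for fibrillar genes, -0.22 for other types and 0.00 over all genes tested. Without control replicate 1 the class medians were 0.34, -0.68 and -0.18. Without control replicate 3, Col18a1 and Col7a1 passed, with differences of 0.97 and 2.74 (edgeR adjusted p = 0.0489 and 0.0307), and without KCC-07 replicate 1 Col6a2 passed, with -1.34 (edgeR adjusted p = 0.0280).

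Scramble against control sets 2 groups with no knockdown and no compound side by side. Of the 30 genes, 4 rose and 2 fell with scramble, 20.0% in all, where 8.79% of all genes tested passed. The replicate block and DESeq2 called the same 6, where 13.8% of all genes passed with the block and 15.4% by DESeq2. Groups were apart for 11 of 30 (36.7%), beside 33.2% of all genes tested. The arms differ in transfection and possibly in handling, and these cannot be told apart. This comparison shares its control libraries with KCC-07 against control.

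Col12a1, a fibril-associated chain of tendon and stroma, had 79.7, 75.1 and 65.9 CPM with scramble, against 17.0, 27.1 and 36.7 CPM in control. The groups were well apart, and siMBD2 libraries, at 70.1, 70.2 and 58.1 CPM, lay beside scramble, while KCC-07 libraries, at 26.2, 22.9 and 27.8 CPM, lay beside control. The log2 fold change for scramble against control was 1.45 (SE 0.217, edgeR adjusted p = 0.00481), and it passed whichever library was left out. With KCC-07 against control it was -0.07 (SE 0.215). Col11a1 had 536, 545 and 660 CPM with scramble, against the control values of 214, 344 and 434 CPM. Its siMBD2 values were 541, 504 and 548 CPM, and all siRNA-transfected libraries lay above all controls. The log2 fold change was 0.81 (SE 0.196, edgeR adjusted p = 0.0277). Col11a2, the second type XI chain, had 13.6, 12.4 and 23.0 CPM with scramble, against 2.96, 6.56 and 9.02 CPM in control. With siMBD2 it had 18, 18.1 and 34.3 CPM and with KCC-07 5.80, 6.74 and 7.77 CPM, so replicate 3 was the highest in each siRNA group. Its log2 fold change for scramble against control was 1.40 (SE 0.387, edgeR adjusted p = 0.0453).

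Col18a1, Col6a1 and Col6a2 completed the 6 calls. Their control values are those already set against KCC-07, so the comparisons are not independent. Col18a1 had 620, 569 and 578 CPM with scramble, against 283, 422 and 453 CPM in control, and every scramble library lay above every control library. It had a log2 fold change of 0.61 (SE 0.158, edgeR adjusted p = 0.0361) against control. Col6a2 had 39.3, 42.9 and 35.2 CPM with scramble, against 59.8, 78.3 and 81.1 CPM in control, with siMBD2 at 41.2, 40.1 and 33.3 CPM. Each control library lay above the other 9 libraries for this gene. The log2 fold change was -0.90 (SE 0.192, edgeR adjusted p = 0.0175), and for Col6a1 it was -0.69 (SE 0.176, edgeR adjusted p = 0.0340). Apart from Col12a1 each of these calls was lost on leaving out at least 4 of the 6 libraries in turn, with largest adjusted p-values in edgeR of 0.0726 to 0.151. Other genes gained a call: without control replicate 1 Col5a1 (-0.88) and Col9a2 (0.46), and without control replicate 3 Col7a1 (1.94), Col4a6 (0.52) and Col23a1 (-3.54), as log2 fold changes with edgeR adjusted p-values of 0.0369, 0.0164, 0.00981, 0.0195 and 0.0372. Beside the type VI genes, the 7 fibroblast markers summed to 111 to 117 CPM with scramble, 112 to 131 CPM with siMBD2 and 73.0 to 144 CPM with KCC-07, against 163 to 178 CPM in control, of which Pdgfra made up most. Of the 4 markers tested, only Pdgfrb passed with scramble, with 3.29 ± 0.968 CPM against 16.6 ± 0.652 CPM in control (SD, n = 3 each). Its log2 fold change was -2.34 (edgeR adjusted p = 0.00966). Pdgfra (-0.46), Pdpn (-1.05) and Fap (-0.26) were not called. Their part in the result was not tested. The basement membrane median was 0.48 with all 7 genes above 0, beside -0.03 over all genes tested, and 0.21 without control replicate 1.

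Replicate number was associated with the levels of some collagen genes in the drug arm, as with many of all genes tested. The count depended on the fit. Of the 30 genes, 8 passed an edgeR test of replicate number across the KCC-07 and control libraries (26.7%, against 19.0% of all genes tested). They were Col1a1 and Col5a2 among fibrillar genes, Col4a2, Col4a5, Col4a6 and Col7a1 among basement membrane genes, and Col17a1 and Col23a1, both transmembrane collagens. For the fibrillar and basement membrane genes named, replicate 3 had the highest mean. Col23a1 was the reverse, with 1.64 and 1.51 CPM in KCC-07 replicates 1 and 2 and 0.112 CPM in replicate 3, and with 1.20, 1.07 and 0.0870 CPM in control. In the siRNA arm 0 of 30 passed (1.18% of all genes tested did), and 3 of 30 did at an unadjusted p under 0.05, where 9.98% of all genes did. Mitochondrial transcripts, a sign of RNA or cell state, took 2.70% to 3.90% of counts in the replicate 3 libraries and 1.45% to 2.32% in the others; their part was not tested. Without the 4 libraries of replicate 3, 8 collagen genes passed for KCC-07 against control and 10 for scramble against control. The share of all genes that passed in those fits is not given here, so these counts have no background beside them.

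Genes that modify, secrete, process, bind or degrade collagen were read from 7 lists of textbook members. With KCC-07, 8 of their 63 tested genes passed (12.7%, against 5.65% of all genes tested), and with the replicate block 23 did (36.5%, against 21.8% of all genes). Without the block, 2 of 9 tested genes of collagen folding and secretion rose and none fell. These were Sec24d and Mia3, which load procollagen into large transport vesicles. Sec24d averaged 129 ± 17.7 CPM with KCC-07 and 78.2 ± 2.40 CPM in control (SD, n = 3 each), with a log2 fold change of 0.72 (edgeR adjusted p = 0.00373), and Mia3 had a log2 fold change of 0.44 (edgeR adjusted p = 0.0464). Among 10 genes of propeptide cleavage and crosslinking 1 rose, Adamts14, a procollagen N-proteinase, by a log2 fold change of 1.17 (edgeR adjusted p = 0.0204). Of 6 fibril-associated proteoglycans and glycoproteins 2 fell. Bgn, the proteoglycan biglycan, averaged 517 ± 88.9 CPM with KCC-07 and 1073 ± 65.2 CPM in control (SD, n = 3 each), and Postn, the matricellular protein periostin, 5.79 ± 2.36 and 48.2 ± 27.8 CPM in those groups. Their log2 fold changes were -1.05 and -3.06 (edgeR adjusted p = 0.00189 and 0.00665). Mmp13, a collagenase, had 5.12, 4.22 and 3.12 CPM with KCC-07, against 0.995, 0.833 and 0.464 CPM in control. It was the 1 of 4 collagenolysis genes to rise (log2 fold change 2.44, edgeR adjusted p = 0.0118). Among laminin, nidogen and perlecan genes, which encode other parts of the basement membrane, Lamb3, a laminin chain, rose by a log2 fold change of 0.51 (edgeR adjusted p = 0.0133). Of 14 prolyl and lysyl modification genes and 8 collagen receptors, 0 passed in edgeR, with 4 each at an unadjusted p under 0.05 and 1 and 0 by DESeq2. With the replicate block 3 modification genes passed in edgeR, with P4hb and Plod3, a prolyl 4-hydroxylase subunit and a lysyl hydroxylase, up and Crtap, a subunit of the prolyl 3-hydroxylase complex, down. Of the receptors Ddr2, a collagen-binding tyrosine kinase, and the integrin subunit Itga10 rose with the block. The calls of Mia3 and Adamts14 were lost without control replicate 1 or 2, that of Mia3 also without any 1 of the KCC-07 libraries, and those of Sec24d, Bgn, Postn, Mmp13 and Lamb3 were kept whichever library was left out.

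With siMBD2, 0 genes passed in any of the 7 lists in edgeR, with the replicate block or by DESeq2. At an unadjusted p under 0.05, 8 of the 63 tested list genes did (12.7%, against 5.26% of all genes tested). For the difference of both effects 0 passed in edgeR without the block, 17 (27%) did at an unadjusted p under 0.05, against 14.6% of all genes, and 5 (7.94%) by DESeq2, against 4.39%. With the replicate block 9 passed in edgeR (14.3%, against 6.90% of all genes). The difference was above 0 for Adamts14, Prelp, Fn1, Mmp13, Lama5 and Lamb1 and below 0 for Crtap, Bgn and Postn. With scramble against control, 7 of the 63 list genes passed (11.1%, against 8.79% of all genes tested), and 14 with the block over all groups (22.2%, against 13.8%). Fn1, the fibril-organising glycoprotein fibronectin, rose to 2496 ± 168 CPM with scramble, against 1306 ± 241 CPM in control (SD, n = 3 each; log2 fold change 0.93, edgeR adjusted p = 0.0104). Bgn fell with a log2 fold change of -0.46 (edgeR adjusted p = 0.0420). Of 8 collagen receptor genes Itga2 and Itga11, integrin subunits that bind collagen, fell, with log2 fold changes of -2.32 and -2.03 (edgeR adjusted p = 0.0226 and 0.00721). Itga11 had 0.471, 0.753 and 0.619 CPM with scramble, against 1.87, 2.10 and 3.54 CPM in control. Lamb1, a laminin chain, rose by a log2 fold change of 0.59, and Adamts3, a procollagen N-proteinase, by 0.84 (edgeR adjusted p = 0.0232 and 0.0214). Of these 6 calls, that of Itga11 alone was kept whichever library was left out, and that of Fn1 was lost without scramble replicate 1 (edgeR adjusted p = 0.0513).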

How the data were processed

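The labels' protocols give poly(A) RNA and a NovaSeq X platform. The raw counts per gene were deposited by the authors and are not normalized. Named in the submitters' processing notes are the builds mm10 and GRCm38.p6 and the tools DRAGEN and DESeq2 1.44.0. A strand setting for the counting is not given in the sources used here.

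Low counts were filtered with filterByExpr (minimum count 10, minimum total 15). TMM scaling and the quasi-likelihood fit (glmQLFit, glmQLFTest) used edgeR 4.0.16 under R 4.3.3, with 1 mean per group over 12 libraries (8 residual degrees of freedom). P-values were adjusted by Benjamini-Hochberg over 14935 genes. The standard error is the absolute log2 fold change over the square root of F. Levels are CPM from edgeR. Single genes were tested in the model across all genes, since an exact permutation test of 3 against 3 libraries cannot go below 0.1. All 12 libraries held different values, and replicates of a group differed by more than sampling noise (chi-square per degree of freedom 3.32 to 124). The labels call the replicates biological and tag the number as a batch, which was used to pair libraries within an arm. Same-numbered libraries deviated together with r = 0.27, 0.28 and 0.48 between KCC-07 and control and with 0.09, 0.15 and 0.42 between siMBD2 and scramble across genes. Differently numbered replicates 1 and 2 had like values, r = 0.17 and 0.30 in the drug arm and 0.18 and 0.21 in the siRNA arm. Replicate 3 against replicates 1 or 2 had r between -0.42 and -0.23. These values thus set replicate 3 apart but do not show a pairing within replicates 1 and 2. The block had 4 residual degrees of freedom within arms and 6 over all groups. The alternatives were the block, DESeq2 1.42.0, its size factors, other filters, a threshold of 0.01, the 6 libraries alone, leave-one-out fits and fits without replicate 3. The script was tested on simulated counts.

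The members and lists, and the rule that gives every library's value for genes past the threshold or among the 3 highest of their class per length, were chosen with earlier results of these data known. Positions and exon lengths came from GENCODE M21, with 54587 of 55335 identifiers found with their version; 2 members took their length from another version of the gene model. No member had a near-identical copy (95% identity over 50% of the transcript). Promoter windows of 300 bases came from RefSeq (GRCm38.p6) for 24 of 30 members. Some results of the lists are not reported here.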

Additional observations from a re-analysis of the deposited data

How the results depend on the processing

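The count of collagen chain genes past the threshold depended on the fit. Shares of all genes tested are given above for the main fit, the block and DESeq2. For the other fits below they are not given, so those counts have no background beside them. For KCC-07 against control (2 genes) it was 8 with the replicate block, 4 by DESeq2, 4 with no filter on low counts, 0 at an adjusted p under 0.01, 0 with the 6 libraries alone, 0 with those and the block, 8 without replicate 3, and 1 to 4 when 1 library was left out. For the difference of both effects (0 genes) it was 1 with the replicate block, 2 by DESeq2, 1 with no filter, 2 without replicate 3 and 0 to 2 when 1 library was left out. For scramble against control (6 genes) it was 1 at an adjusted p under 0.01, 2 with the 6 libraries alone, 3 with those and the block, 10 without replicate 3, and 1 to 8 when 1 library was left out. It was 1 without control replicate 2 and without each of scramble replicates 1, 2 and 3. Col1a1 turned round there: its log2 fold change was -0.14 with all libraries and 0.29 without replicate 3 (adjusted p = 0.0250 in edgeR). For siMBD2 against scramble (0 genes) it was 5 with the 6 libraries alone and the block, and 0 in each leave-one-out fit. The count for replicate number was 14 with no filter, 2 with the arm alone and 6 to 21 with 1 library left out in the drug arm (8 genes), the highest without KCC-07 replicate 1, and 2 with no filter and 13 with the arm alone in the siRNA arm (0 genes). The median of the other types with siMBD2 (-0.02) was 0.04 with the replicate block and -0.05 to 0.08 with 1 library left out. The cause of these changes was not tested. Other class medians moved as well, among them those given in the report without control replicate 1. Same-numbered scramble and control libraries correlated with r = 0.07, 0.02 and 0.13, and library names number replicate 3 differently in both arms, so a pairing across arms is uncertain; for the collagen chain genes the block changed no other call than those given here and in the report. Over the 63 genes of the 7 lists it moved the count of calls to 23 for KCC-07 against control (8 without it), 9 for the difference (0 without it) and 14 for scramble against control (7 without it).

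With 3 libraries a group the standard errors were largest for Col23a1, Col17a1 and Col20a1 in each comparison. Col1a2, Col20a1 and Col23a1 reached 10 counts in only 4, 6 and 4 libraries. Reads of Col4a1 and Col4a2 over 22 shared exonic bases cannot be assigned without strand.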

Other observations

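The fibrillar and fibril-associated collagens at the highest levels here, types IX and XI, are those of cartilage, and other cartilage genes were therefore read; they were chosen after the collagen values had been seen. Sox9, the regulator of chondrocyte fate that many epithelia also express, had 505 to 649 CPM with KCC-07, 652 to 719 CPM with siMBD2, 585 to 668 CPM with scramble and 326 to 517 CPM in control. Matn4, a matrilin, had 27.3 to 54.1 CPM and Matn2 26.6 to 44.8 CPM over the 12 libraries. Acan, the main proteoglycan of cartilage, had 1 count in all libraries together, and Matn1 and Epyc had 0. Types II, IX and XI together made up 31.2% to 40.8% of the summed collagen level per length with KCC-07, 45.7% to 49.7% with siMBD2, 42.5% to 49.4% with scramble and 32.1% to 39.3% in control. The siMBD2 and scramble libraries thus lay above all KCC-07 and control libraries.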
